A study of Mus musculus with 2 samples.

Results

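The YAP target genes described here are Cyr61, Ctgf, Ankrd1, Amotl2, Ajuba, Axl and Lats2, 7 of the 31053 mouse gene rows of a single-cell RNA-sequencing matrix from day 6 mouse liver. They were taken by symbol from the matrix, which uses the older names Cyr61 (now Ccn1) and Ctgf (now Ccn2), without regard to how they were expressed. Their levels were followed in hepatocytes across the amount of the Nras transcript per cell, and then across the other cell types of the sort.

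YAP and its paralogue TAZ, the product of Wwtr1, are transcriptional co-activators held in the cytoplasm by the Hippo kinases, MST and LATS. When they enter the nucleus they bind DNA through TEAD factors and raise a set of genes that includes these 7. In liver the pathway is known for the control of organ size, regeneration and hepatocyte identity.

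The study asked whether the dose of oncogenic RAS in hepatocytes is matched by differences in their transcriptomes. Female C57BL/6 mice of 6 to 8 weeks received by hydrodynamic tail-vein injection, a fast high-volume injection that delivers plasmid to a subset of hepatocytes, a transposon in which the CAGGS promoter drives NRAS with mVenus, a fluorescent protein. Of the 3 mice, 2 received oncogenic NRAS(G12V) and 1 received NRAS(G12V/D38A), in which a further change in the effector loop makes the protein non-oncogenic, so all 3 carried a transposon and an mVenus sort, and no uninjected mouse was included. On day 6 liver cells were labelled per mouse with a hashtag antibody, sorted for mVenus, pooled and counted as UMIs, single captured transcripts, on the 10x Genomics 3′ platform.

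The deposited key pairs hashtag 1 with the NRAS(G12V/D38A) mouse and hashtags 2 and 3 with the NRAS(G12V) mice, whereas the methods pair hashtags 1 and 2 with NRAS(G12V) and hashtag 3 with NRAS(G12V/D38A). Hashtag 2 is an NRAS(G12V) mouse in both, and mice are therefore named by hashtag. The construct is read through the mouse Nras row, which reached 1427 UMIs in 1 barcode, so the Nras level in CPM, the counts-per-million scale in which UMIs of a gene are divided by the total of the cell or sum, was used as the measure of construct level.

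A barcode counted as a hepatocyte when Alb, Apoa1, Apoa2, Ttr and Fgb together made up at least 1% of its UMIs, which 8502 of 10212 kept barcodes did. Deep hepatocytes, with at least 10000 UMIs, numbered 2306, of which 216 were called for hashtag 1, 1109 for hashtag 2 and 25 for hashtag 3. A further 890 were negative for hashtags. Deep hepatocytes were divided by Nras CPM into a lowest (under 300), second (300 to under 1000), the third (1000 to under 3000) and the highest bin (3000 and over), which held 144, 30, 22 and 20 cells of hashtag 1 and 813, 134, 92 and 70 cells of hashtag 2. For hashtag 3 the counts were 21, 1, 1 and 2, so comparisons between bins rest on hashtags 1 and 2. The sums of these 8 bins held between 1043653 and 35017682 UMIs, and levels are given as CPM of the sum with exact Poisson 95% intervals that cover counting error only. As UMIs were counted at the 3′ end, levels are compared between cells and not between genes. Sums per hashtag and bin were compared in 1 model over all genes, and the p-values measure the spread between these few sums.

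The bins differed in more than Nras. In hashtag 2 the median depth was 42193 UMIs per cell in the lowest and 59760.5 in the highest bin, and the 5 hepatocyte transcripts made up 9.95% and 4.96% of UMIs. Of the deep hepatocytes, 730 (31.7%) also passed the marker gate of another cell type, mostly the cholangiocyte gate. Of its 7 markers, Spp1 stood at 2359 CPM in the lowest and 18350 CPM in the highest bin of hashtag 2, against 3624 and 15961 CPM for hashtag 1, and Tspan8 and Sox9 were also higher in the highest bins. The duct markers Krt19 and Cftr were at 0 in the highest bin of both mice, Krt7 had 0 and 1 UMIs there, and Epcam had 0 and 41 UMIs, 30 of them in 1 cell. The 9 stellate or fibroblast markers summed to 92.2 CPM (hashtag 1) and 140.5 CPM (hashtag 2) at the lowest and to 634 and 618 CPM at the highest bin, but Ecm1 alone gave 614 and 594 CPM of the highest bins, where Col1a1, Col1a2 and Pdgfrb were at 0. The 6 markers of mature dendritic cells stood at 117 and 12.4 CPM at the lowest and at 3.83 and 19.8 CPM at the highest bin of these mice. The part of these differences in the levels of the YAP targets was not tested.

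To show where a TEAD factor could bind near these genes, the 250 bases before each RefSeq start (GRCm38.p6) were searched on both strands for GGAATG, the core TEAD motif, whose other-strand form reads CATTCC. A promoter was given for 6 of the 7 members, Ctgf being the exception. The motif occurred before 5 of these 6 genes, all but Lats2, against 12.6% of 32851 promoters of the same length (4153). The 30 bases around each of the 7 matches are printed 5′ to 3′ on the strand of the gene, with the match in capitals.
Ankrd1 (chr19:36120037-36120066, reverse strand): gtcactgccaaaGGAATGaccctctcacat
Ankrd1 (chr19:36119950-36119979, reverse strand): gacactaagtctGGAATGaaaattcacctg
Cyr61 (chr3:145650071-145650100, reverse strand): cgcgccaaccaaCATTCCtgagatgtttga
Amotl2 (chr9:102717727-102717756, forward strand): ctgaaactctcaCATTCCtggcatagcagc
Ajuba (chr14:54577830-54577859, reverse strand): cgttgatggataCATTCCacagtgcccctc
Ajuba (chr14:54577808-54577837, reverse strand): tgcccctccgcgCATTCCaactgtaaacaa
Axl (chr7:25788949-25788978, reverse strand): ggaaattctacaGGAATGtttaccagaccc
The Ankrd1 matches began 210 and 123 bases before the RefSeq start. In the GENCODE annotation of GRCm38 these and the Amotl2 match lie within the bounds of the gene, and the matches of Cyr61, Ajuba and Axl lie upstream of theirs. The AP-1 motif TGANTCA, searched in the same way and with no overlap with GGAATG in sequence, was found before 0 of the 6 genes and in 6.75% of all promoters. A match is a description of letters and not a measured site.

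Ankrd1, which encodes a nuclear and sarcomeric ankyrin repeat protein and is among the most used readouts of YAP, was the member that rose with Nras. In hashtag 1 it stood at 13.3, 60.5, 26.6 and 103 CPM from the lowest to the highest bin, and in hashtag 2 at 17.7, 44.2, 63.7 and 84.6 CPM. The lowest bins (95% intervals 10.3 to 16.9 and 16.3 to 19.2) did not overlap with the other 3 bins of either mouse, and the third bin of hashtag 1 lay below its second. In hashtag 3 the lowest bin gave 21.8 CPM, but 9 of its 10 UMIs came from 1 cell.

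In the fit with the mouse as a block, Ankrd1 was 2.52 higher on the log2 scale in the highest than in the lowest bin (SE 0.30, adjusted p = 0.00013, edgeR quasi-likelihood test). Among 11315 genes tested it ranked 122nd from the most raised. It was the 1 member of 7 called in this comparison, in which 10.6% of all genes were called higher and 11.0% lower (21.6% in all), so the share of members called was not above that of all genes. The rise was already present at the second bin, by 1.67 (SE 0.30, adjusted p = 0.0083), where 2.73% of genes were called higher and 2.71% lower (5.44% in all) and Ankrd1 was again the 1 member called. This call was lost when cells passing another marker gate were left out (0.88, adjusted p = 0.50), when the Nras limits were halved (1.09, adjusted p = 0.38) and when the lowest bin was matched in depth (1.39, adjusted p = 0.060), whereas the call of the highest bin held in each of the 17 alternatives with a test (2.24 to 2.99). When cells passing another gate were left out, the highest bin consisted of the 14 remaining cells of hashtag 2, since too few of hashtag 1 were left for a sum (2.46, adjusted p = 0.0011).

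**Figure D1:**
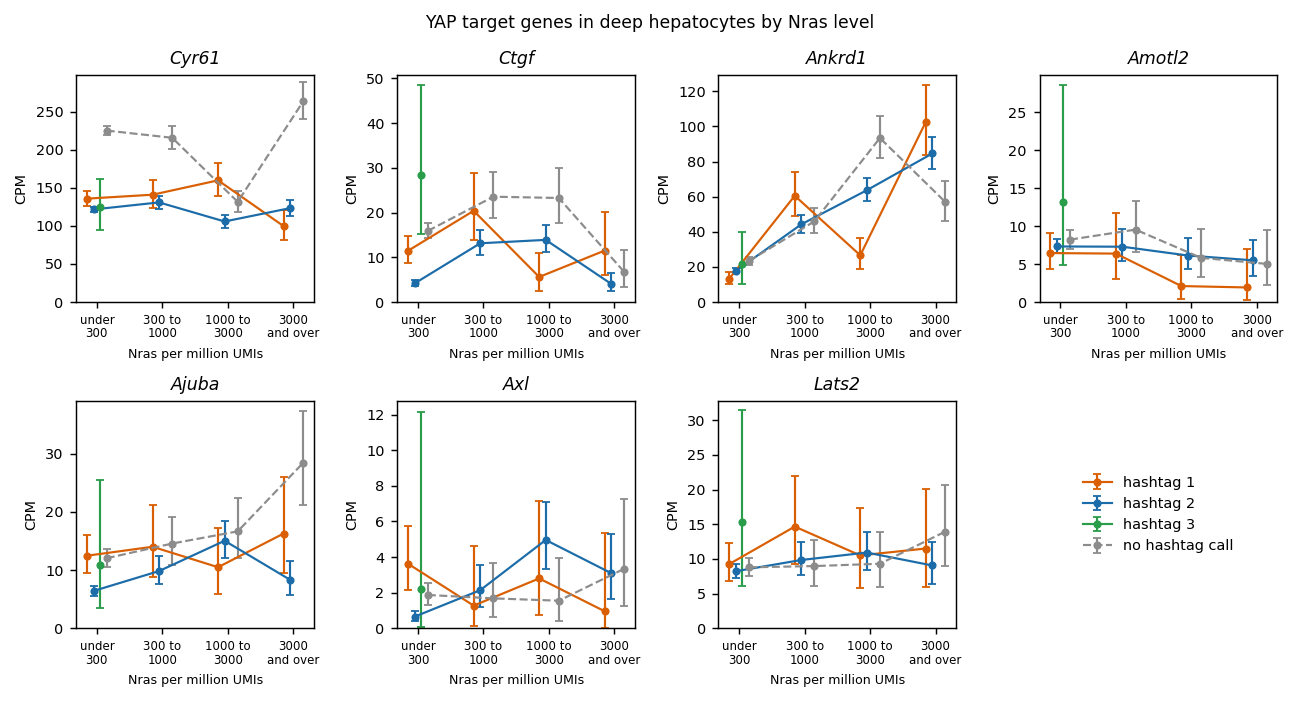
Levels of the 7 genes in deep hepatocytes (y axes, CPM, linear and scaled per gene) by bin of Nras CPM (x axes), for each hashtag and for cells with no hashtag call, with exact Poisson 95% intervals as bars and bins of under 5 cells left out. Ankrd1 lies lowest in the lowest bin of hashtags 1 and 2 and reaches 103 and 84.6 CPM in the highest, whereas Cyr61 stays between 99.7 and 160 CPM in these mice.

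Few cells carried most Ankrd1, and the share of cells with it was higher in the highest than in the lowest bin. Ankrd1 had a UMI in 58 of 216 deep hepatocytes of hashtag 1 and 358 of 1109 of hashtag 2, and the tenth of cells with the most held 81.4% and 75.6% of its UMIs. With each cell thinned to 10000 UMIs, to remove the depth difference, 6.25% of lowest-bin cells of hashtag 1 (exact binomial 95% interval 2.90 to 11.5) and 40.0% of highest-bin cells (19.1 to 64.0) had an Ankrd1 UMI, against 13.9% and 60% unthinned. In hashtag 2 the thinned shares were 9.47% (7.55 to 11.7) and 34.3% (23.4 to 46.6), against 21.8% and 67.1% unthinned. The intervals of the lowest and highest bins did not overlap in either mouse.

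Leaving out, in each sum, the cell with the most Ankrd1 left a ratio of the highest to the lowest bin of 6.62 in hashtag 1 and 4.65 in hashtag 2, against 7.72 and 4.78 with all cells. In the second bin of hashtag 1, 39 of the 95 Ankrd1 UMIs came from 1 cell, without which it held 38.1 CPM. The cells with no hashtag call, which entered no test, gave 23.4, 46.0, 93.4 and 56.9 CPM, so their highest bin stood 2.43 times above the lowest and below the third.

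**Figure D2:**
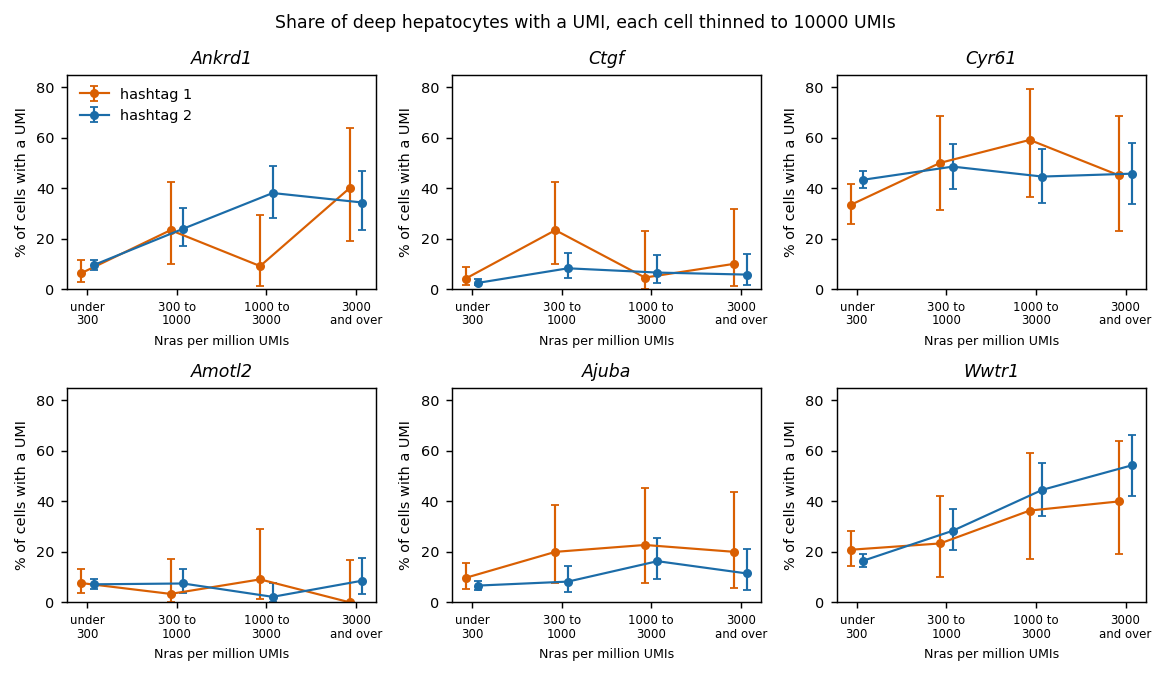
Share of deep hepatocytes with at least 1 UMI of a gene (y axes, % of cells, each cell thinned to 10000 UMIs) by bin of Nras CPM (x axes) for hashtags 1 and 2, with exact binomial 95% intervals as bars. The share with Ankrd1 is 6.25% and 9.47% among the lowest-bin cells and 40.0% and 34.3% among the highest, and that with Wwtr1, the gene of TAZ, reaches 54.3% in hashtag 2.

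Ctgf and Cyr61 encode secreted matricellular proteins of the CCN family, and both are standard readouts of YAP together with Ankrd1. Ctgf was at 11.5, 20.4, 5.60 and 11.5 CPM across the bins of hashtag 1 and at 4.17, 13.1, 13.9 and 4.05 CPM in hashtag 2. It was thus highest in the second bin of hashtag 1 and in the second and the third bins of hashtag 2, and in both mice the highest bin stood at the level of the lowest. From the lowest to the second bin Ctgf differed by 1.34 (log2, SE 0.41), which did not pass the edgeR test (adjusted p = 0.099). From the lowest to the highest bin it differed by -0.04 (SE 0.54, adjusted p = 0.98).

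The pattern of Ctgf depended on where the limits lay and on few cells. With the Nras limits halved, Ctgf was 1.07 higher in the highest bin (adjusted p = 0.042), and with the hepatocyte gate at 2% it was 1.44 higher in the second bin (adjusted p = 0.0497). Without a filter on low counts the second bin was also called (1.33, adjusted p = 3.1e-06). The difference of the highest bin had the opposite sign in 7 of 19 alternatives. Without cells passing another marker gate the highest bin was left with 14 cells of hashtag 2 and 0 Ctgf UMIs, so no fold is given, and the test did not call it (adjusted p = 0.57). Of the 12 UMIs in the highest bin of hashtag 1, 9 came from 1 cell. Cells with no hashtag call gave 15.9, 23.5, 23.3 and 6.69 CPM, where the highest bin lay below the lowest.

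Cyr61 was at 136, 141, 160 and 99.7 CPM in hashtag 1 and at 122, 131, 106 and 123 CPM in hashtag 2. The highest bin was the lowest of hashtag 1 and lay at the level of the lowest bin in hashtag 2, and neither mouse had an ordered change. The difference between the highest and the lowest bin was -0.15 (log2, SE 0.17, adjusted p = 0.62). In the alternatives it lay between -0.37 and 0.40, with the opposite sign in 6 of 19, and was called in 0 of the 17 with a test. Once thinned, Cyr61 was found in 33.3% of lowest-bin and 45.0% of highest-bin cells of hashtag 1, and in 43.3% and 45.7% of those of hashtag 2, with overlapping intervals.

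In the lowest bin Cyr61 was higher in deep hepatocytes with no hashtag call than in those of the 3 mice. That bin of the cells with no hashtag call held 225 CPM (95% interval 219 to 232), against 136 (126 to 146), 122 (118 to 125) and 124 (94.3 to 161) in hashtags 1, 2 and 3. Their interval did not overlap with those of the 3 mice. This did not hold in each bin, as the third bin of the cells with no call held 131 CPM (118 to 146), against 160 CPM (140 to 182) in hashtag 1. Their median depth in the lowest bin was 27956 UMIs per cell, against 28216, 42193 and 14838, and the part of depth in the difference was not tested.

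Amotl2 and Ajuba encode junctional and adaptor proteins that act on the pathway itself, an angiomotin that binds YAP and a LIM protein that binds LATS kinases. Amotl2 stood at 6.44, 6.37, 2.101 and 1.92 CPM in hashtag 1 and at 7.31, 7.28, 6.12 and 5.48 CPM in hashtag 2. Its highest bin lay below its lowest in both mice, but the difference of -0.67 (log2, SE 0.36) did not pass the test (adjusted p = 0.22), and it rested on 2 and 23 UMIs in the highest bins.

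Ajuba stood at 12.5, 14.02, 10.5 and 16.3 CPM in hashtag 1 and at 6.43, 9.85, 15.0 and 8.34 CPM in hashtag 2. The difference between the highest and the lowest bin was 0.37 (log2, SE 0.33, adjusted p = 0.50), positive in all alternatives (0.23 to 0.87). In cells with no hashtag call Ajuba went from 12.1 CPM (10.6 to 13.6) in the lowest to 28.5 CPM (21.2 to 37.4) in the highest bin, and these intervals did not overlap.

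Lats2 encodes a LATS kinase that phosphorylates YAP and TAZ, and is itself induced by them. It was at 9.26, 14.7, 10.5 and 11.5 CPM in hashtag 1 and at 8.22, 9.85, 10.9 and 9.06 CPM in hashtag 2, so the intervals of all bins of a mouse overlapped. The highest and lowest bins differed by 0.19 (log2, SE 0.24, adjusted p = 0.68).

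Axl encodes a receptor tyrosine kinase of the TAM family, whose ligand is Gas6. It was near the detection limit in hepatocytes, with 25 UMIs in all deep hepatocytes of hashtag 1 and 81 in those of hashtag 2. In hashtag 1 it gave 3.62, 1.27, 2.80 and 0.96 CPM and in hashtag 2 it gave 0.66, 2.14, 4.96 and 3.098 CPM, so the lowest bin was the highest in hashtag 1 and the lowest in hashtag 2. The fitted difference between the highest and the lowest bin was 0.79 (log2, SE 0.89, adjusted p = 0.61).

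Between neighbouring upper bins 0 of 7 members were called. From the second to the third bin 0.345% of genes were called higher and 0.398% lower (0.742% in all), and from the third to the highest bin 0.0% were called higher and 0.00884% lower, which is 1 gene, with 551 genes at an unadjusted p under 0.05. Over the step to the highest bin Ankrd1 differed by 0.88 (log2, adjusted p = 0.79) and Ctgf by -1.01 (adjusted p = 1.0, edgeR). The median over the 7 members was 0.19 from the lowest to the highest bin, against -0.05 over all genes tested.

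Of 16 other genes often used in YAP/TAZ signatures, 12 could be tested between the highest and the lowest bin, of which 4 rose, 1 fell and 7 did not pass, against 10.6% higher and 11.0% lower among all genes. The gene that fell was Gadd45a, a stress-response gene, by 0.89 (adjusted p = 0.013). Igfbp3, which encodes a binding protein of insulin-like growth factors, rose by 3.01 (log2, adjusted p = 1.7e-07). Its lowest and highest bins held 98.0 and 771 CPM for hashtag 1, against 86.3 and 689 CPM for hashtag 2. F3, the gene of tissue factor, rose by 1.27, Dock5 by 1.12 and Myof, the gene of myoferlin, by 0.99 (adjusted p = 0.042, 0.010 and 0.0011). F3 lost its call in 11 of the alternatives, among them the fixed hashtag rule and the fit without the mouse as a block. The list median was 0.27.

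Of the 23 genes of the Hippo pathway tested, 4 rose, 1 fell and 18 did not pass, with a list median of 0.00. The 5 called are close to the share of all genes called, which was 10.6% higher and 11.0% lower (21.6% in all). Wwtr1 stood at 20.9, 32.5, 58.8 and 75.7 CPM in hashtag 1 and at 20.05, 35.1, 54.6 and 73.2 CPM in hashtag 2, so that it was higher in each bin than in the bin below in both mice. It rose by 1.87 (log2, SE 0.13, adjusted p = 4.8e-06) from the lowest to the highest bin, and by 0.77 (adjusted p = 0.0068) already at the second bin. Yap1 was at 18.5 and 17.2 CPM in these bins of hashtag 1 and at 17.1 and 16.4 CPM in those of hashtag 2, a difference of -0.07 (SE 0.17, adjusted p = 0.84). Yap1, Gadd45a and Limd1 were named after their values were seen.

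The other Hippo pathway genes called were Tead4, which encodes a TEAD factor and rose by 1.71, Frmd6, the gene of a FERM protein, which rose by 1.16, Limd1, the gene of a LIM protein related to Ajuba, which rose by 0.66, and Amot, which encodes angiomotin and fell by 1.10 (adjusted p = 0.031, 0.016, 0.0053 and 0.012). Tead4 rested on 9 UMIs in the highest bin of hashtag 1 and was not called by DESeq2 (adjusted p = 0.14).

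The 3 remaining lists give other genes along the same bins, where 10.6% of all genes tested were called higher and 11.0% lower. Of 13 genes of RAS-ERK output, 7 rose and 0 fell (median 1.11), led by Fosl1, an AP-1 subunit (3.54), the ETS factor Etv4 (2.24), the ERK feedback inhibitor Spry2 (1.83) and cyclin D1, Ccnd1 (1.55). Of 10 tested genes of 14 that serve actin or are targets of SRF, 7 rose and 0 fell (median 0.96), led by Thbs1 (1.81), Flna (1.45), Tpm1 (1.39) and Tagln2 (1.27), which encode a thrombospondin, filamin A, a tropomyosin and a transgelin.

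Of 17 tested immediate early genes, which respond within minutes to stress and tissue handling, Ier3 rose by 1.93 and 3 fell, Socs3 by 1.65, Jun by 0.56 and Fos by 0.50 (log2, median of the list -0.14). The share of this list called was close to the 21.6% of all genes called. The sign of Jun turned when cells were ranked by mVenus (0.02, adjusted p = 0.97). Summed, the 18 listed immediate early genes stood at 4074 and 4265 CPM in the end bins of hashtag 1 and at 5047 and 3788 CPM in those of hashtag 2, and their part in the levels of the YAP targets was not tested.

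**Figure D3:**
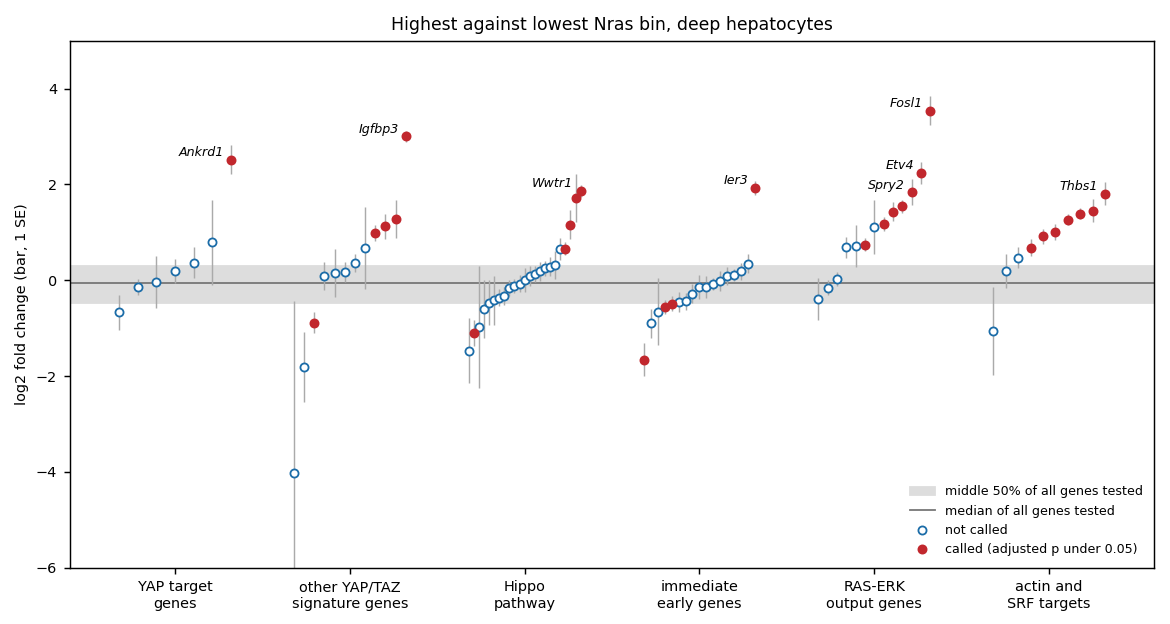
Difference between the highest and the lowest Nras bin in deep hepatocytes (y axis, log2 fold change with 1 SE as bar) for each tested gene of 6 lists (x axis), filled where called at an adjusted p under 0.05, with the median and middle 50% of the 11315 genes tested as line and band. Ankrd1 at 2.52 is the called member among the YAP targets, where the actin and RAS-ERK lists have 7 called genes each. The bar of the lowest gene of the signature list, Ccdc80, runs past the axis.

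Ankrd1 was found in a larger share of cells with Ctgf than of those without it in hashtag 2, whereas in hashtag 1 the shares ran in opposite directions in different bins, over 8 and 6 cells with Ctgf. In the second and the third bins of hashtag 2, thinned, an Ankrd1 UMI was found in 64.7% of the 17 cells with Ctgf and in 26.8% of the 209 without it (Spearman's rho 0.22 over cells). In the lowest bin the shares were 35.0% of 20 cells and 8.83% of 793. In hashtag 1 the shares were 25% of 8 cells and 15.9% of 44 in the second and the third bins, and 0% of 6 cells and 6.52% of 138 in the lowest. Cyr61 was found in 47.8% of cells with Ankrd1 and 46.5% without it in the second and the third bins of hashtag 2. Among lowest-bin cells of hashtag 2, Cyr61 was found in 58.4% of 77 with Ankrd1 and 41.7% of 736 without it. For hashtag 1 the lowest-bin shares were 66.7% of 9 cells and 31.1% of 135. Between its lowest and highest bins they ran the other way, at 44.4% of 9 cells and 55.8% of 43. Highest-bin shares were 50% of 24 and 43.5% of 46 in hashtag 2, and 50% of 8 and 41.7% of 12 in hashtag 1. These cells share mice, depth and bins, and the values are a description.

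Over the 9 sums of the fit, of which 8 vary within a mouse, the mean profile of the members on the log2(CPM + 1) scale, centred per mouse, followed Ajuba (Pearson's r 0.85), Ctgf (0.84) and Lats2 (0.80) more than Ankrd1 (0.61), and ran against Cyr61 (-0.25). As each member is part of that mean, its r is raised by its own values. The 5 other genes most like the mean profile, of 6476 with a mean of at least 10 CPM, were Rpl10-ps3 (0.93), Dnm1l (0.92), Hpf1 (0.92), Ubl4a (0.91) and Nomo1 (0.91). They are the top of 6476 correlations over 8 varying sums, and no test was run on them.

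No test between genotypes was possible with 1 NRAS(G12V/D38A) mouse whose hashtag is given in 2 ways, and the values per mouse are given instead. Over all deep hepatocytes Ankrd1 was at 34.0, 31.95 and 21.3 CPM in hashtags 1, 2 and 3, from 306, 1670 and 13 UMIs. Cyr61 was at 136, 121 and 187 CPM and Ctgf at 12.1, 6.49 and 24.6 CPM, both highest in hashtag 3, which had the fewest cells. Amotl2 was at 5.22, 7.02 and 13.1 CPM and Lats2 at 10.7, 8.82 and 16.4 CPM, also highest in hashtag 3. Of the 15 Ctgf UMIs of hashtag 3, 11 came from 1 cell, without which its lowest bin went from 28.4 to 4.51 CPM. For Cyr61 the lowest bin of hashtag 3 held 124 CPM from 57 UMIs, or 81.2 CPM without the cell with the most. A further 21 Cyr61 UMIs came from its 1 cell in the second bin and 36 from its 2 cells in the highest bin. The 10 endothelial markers summed to 1282 CPM in the lowest bin of hashtag 3, against 173.5 and 24.5 CPM in hashtags 1 and 2, and their part in the levels of Amotl2 and Lats2 was not tested. The rise of Ankrd1 from the lowest to the highest bin was seen in hashtag 2, an NRAS(G12V) mouse in both sources, and in hashtag 1. By the deposited key the fit by Nras thus rests on 1 mouse of each genotype, and by the methods on 2 NRAS(G12V) mice.

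Several of these levels differed between shallow and deep barcodes. Of the 8502 barcodes in the hepatocyte gate, 6196 held under 10000 UMIs, most with no hashtag call. Among barcodes with no call Cyr61 was at 16.4, 9.16 and 28.8 CPM in those of 1000 to 2000, 2000 to 5000 and 5000 to 10000 UMIs, and at 264 and 199.8 CPM in those of 10000 to 30000 and 30000 or more. Ankrd1 was at 6.78, 5.27 and 11.1 CPM below 10000 UMIs and at 29.5 and 36.5 CPM above. Ctgf went from at most 3.21 CPM to 26.5 and 13.2 CPM.

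The 5 hepatocyte transcripts made up 2.97% to 4.60% of UMIs in the shallow barcodes with no call and 6.43% and 8.23% in the deep ones. Amotl2, Ajuba and Lats2 stood at 4.64, 4.64 and 4.28 CPM in the shallowest class and at 8.07, 13.1 and 8.84 CPM in the deepest. Shallow barcodes were kept out of the comparison by Nras because a single Nras UMI gives them a high Nras CPM. What they hold was not tested.

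**Figure D4:**
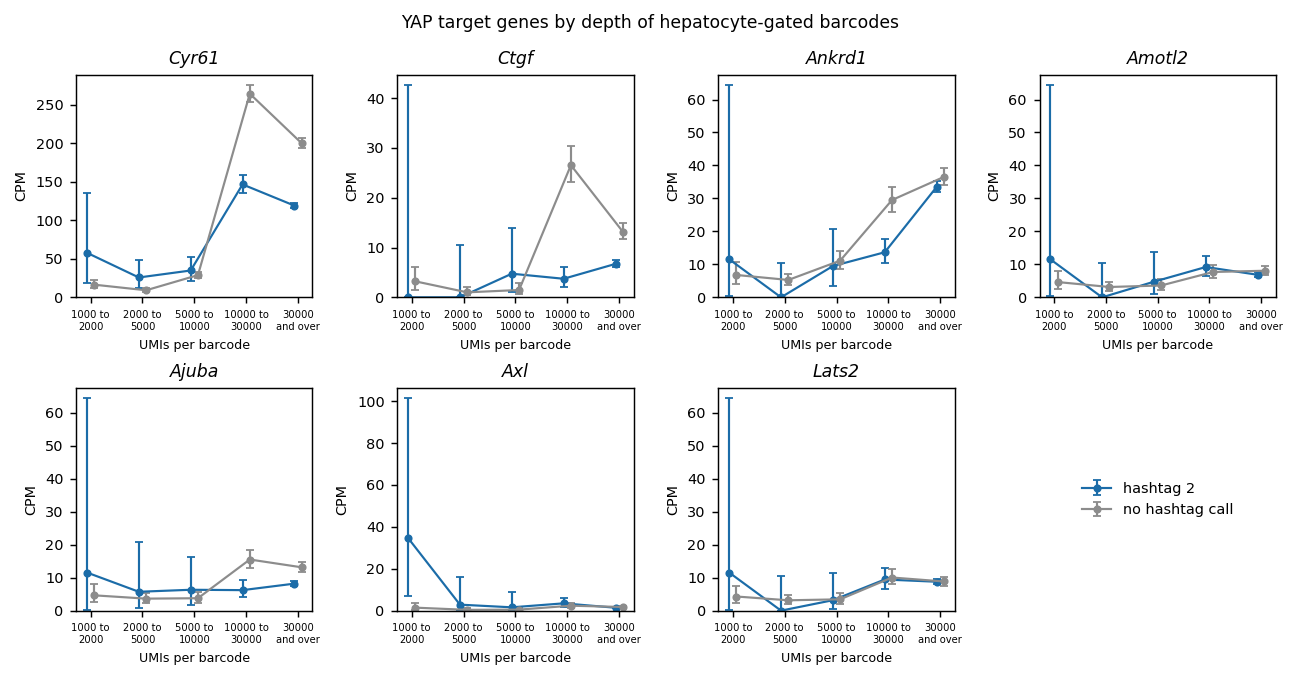
Levels of the 7 genes (y axes, CPM, linear and scaled per gene) in barcodes of the hepatocyte gate by UMIs per barcode (x axes), for hashtag 2 and for barcodes with no hashtag call, with exact Poisson 95% intervals as bars. Cyr61 is at 28.8 CPM or below under 10000 UMIs and at 199.8 CPM or above over it in barcodes with no call.

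Across the other cell types of the sort the members parted by lineage. A barcode under the hepatocyte limit was gated to the type whose markers made up the largest share of its UMIs, at least 0.2% and from at least 3 markers, which gave 519 endothelial-gated, 324 mature dendritic, 137 conventional dendritic, 74 T or NK, 43 B and 36 macrophage-gated cells called for 1 hashtag. The 10 endothelial markers were each found in at least 447 of the 519 cells, among them Stab2 and Clec4g of liver sinusoids. Albumin, which is also a transcript of the hepatocyte gate, was taken as a gauge of free hepatocyte RNA. It was at 30713 CPM in deep hepatocytes and between 1051 and 2517 CPM in these 6 types.

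Amotl2 was higher in endothelial-gated cells than in hepatocytes, with 42.8, 123 and 114 CPM in hashtags 1, 2 and 3, against 5.49, 6.96 and 24.7 CPM in the latter. The groups did not overlap. Endothelial-gated cells of hashtags 1 and 2 numbered 21 and 34 and held 7 and 19 UMIs, and those of hashtag 3 numbered 464. The difference was 2.41 (log2, SE 0.41, adjusted p = 0.0053). Hepatocytes of all depths, shallow barcodes included, entered this comparison. In hashtag 3, 169 of 409 hepatocytes (41.3%) also passed the endothelial gate, and 25 of the 409 were deep.

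Lats2 was at 36.7, 32.4 and 62.7 CPM in endothelial-gated cells and at 10.3, 8.70 and 19.8 CPM in hepatocytes, again without overlap. The difference of 1.17 (log2, SE 0.39) passed the test (adjusted p = 0.044), but was lost without any 1 of the hashtags (adjusted p = 0.13 to 0.26). Axl was at 0, 51.9 and 12.8 CPM in endothelial-gated cells and at 3.35, 1.61 and 3.85 CPM in hepatocytes, so the groups overlapped, and the difference of 1.97 was not called (adjusted p = 0.094).

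Cyr61 was lower in endothelial-gated cells, at 6.11, 19.5 and 34.1 CPM against 126, 119 and 72.0 CPM in hepatocytes, by 2.64 on the log2 scale (SE 0.49, adjusted p = 0.0060). Ankrd1 was at 0, 0 and 0.49 CPM from 1 UMI in all endothelial-gated cells (0.43 CPM, 95% interval 0.01 to 2.38), against 31.8, 31.4 and 8.79 CPM in hepatocytes. It was called lower (adjusted p = 0.0049), and its fitted size depends on the prior count and is not given. Ctgf at 12.2, 0 and 27.2 CPM and Ajuba at 0, 6.49 and 2.96 CPM were not called (adjusted p = 0.88 and 0.13).

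Among the 7 members 2 were thus higher and 2 lower in endothelial-gated cells, where 14.4% of the 10842 genes tested were called higher and 17.3% lower (31.8% in all). Without hashtag 1 this comparison had 0 calls among all genes and 0 among the members (edgeR), with 2672 of 10667 genes at an unadjusted p under 0.05 and adjusted p of 0.14 for Amotl2 and Cyr61 and 0.13 for Ankrd1. Of the 21 Hippo pathway genes tested, 8 were higher and 0 lower. Wwtr1 was at 110, 136 and 135 CPM in endothelial-gated cells, 1.30 above hepatocytes (adjusted p = 0.042), and Yap1 at 42.8, 51.9 and 34.6 CPM was not called (adjusted p = 0.42).

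Axl was highest in macrophage-gated cells, at 240, 529 and 595 CPM in 10, 20 and 6 cells of hashtags 1, 2 and 3. In hashtag 2 it had a UMI in 90.0% of them and, with cells thinned to 2000 UMIs, in 77.8% (exact binomial interval 52.4 to 93.6), against 0.615% (0.266 to 1.21) of hepatocytes. Mature dendritic cells followed at 71.1 and 85.3 CPM in hashtags 1 and 2 and conventional dendritic cells at 8.29 and 17.5 CPM. The intervals of these 3 types did not overlap in hashtag 2. No test was run between these types, whose counts per mouse were mostly small.

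In the 74 T or NK cells Cyr61, Ctgf, Ankrd1, Amotl2 and Ajuba had 0 UMIs, where albumin was at 2013 CPM. In mature dendritic cells Cyr61 and Ankrd1 stood at 3.01 and 1.00 CPM, which is 2.43% and 3.12% of their deep hepatocyte level, against 3.84% for albumin. The hepatocyte limit itself bounds albumin in these cells, and whether their Cyr61 and Ankrd1 UMIs are free RNA was not tested. Stellate or fibroblast-gated cells, 12 in all, held Cyr61 at 248, Amotl2 at 146, Lats2 at 160.5 and Ctgf at 87.5 CPM, from 17, 10, 11 and 6 UMIs.

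**Figure D5:**
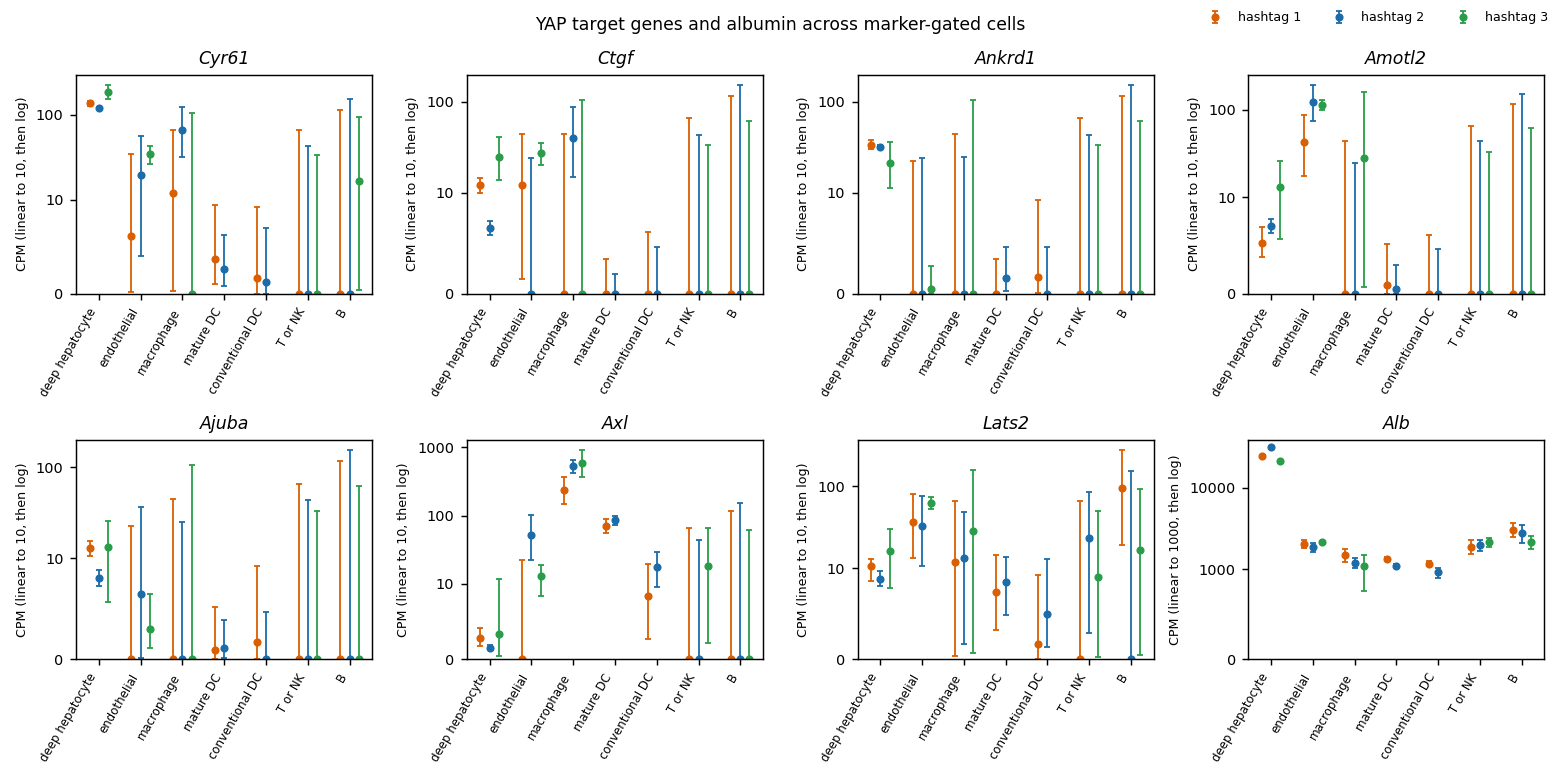
Levels of the 7 genes and of albumin, taken as a gauge of free hepatocyte RNA (y axes, CPM, linear up to 10, or 1000 for albumin, and logarithmic above), in marker-gated cell types (x axes) of each hashtag, for sets of at least 5 cells, with exact Poisson 95% intervals as bars (DC, dendritic cells). Amotl2 is at 42.8 to 123 CPM in endothelial-gated cells, Axl at 240 to 595 CPM in macrophage-gated cells, and Ankrd1 has 1 UMI in all endothelial-gated cells and none in T or NK cells.

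A set of 22 barcodes fell below the hepatocyte limit and passed the cholangiocyte gate, with medians of 56467.5 and 56150 UMIs in hashtags 1 and 2. Their markers bore out that name only in part. Spp1 gave 86.0% of their marker UMIs, and Tspan8 was found in 22, Sox9 in 20 and Epcam in 7 of the 22. Krt19, at 70.1 CPM, was found in 5, Krt7 in 3 and Cftr in 1. They carried the construct, with Nras at 5391 and 1829 CPM and mVenus at 402 and 199.6 CPM in hashtags 1 and 2.

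These barcodes held the highest Ankrd1 of any gated set, 151 and 171 CPM in hashtags 1 and 2 from 8 and 12 cells. Cyr61 was at 301 and 388 CPM, Ctgf at 35.3 and 28.3 CPM and Ajuba at 37.6 and 42.4 CPM. Each of these 4 was above its level in deep hepatocytes of the same mouse (34.0 and 31.95 CPM for Ankrd1, 136 and 121 for Cyr61, 12.1 and 6.49 for Ctgf, and 12.9 and 8.04 for Ajuba). Most of those deep hepatocytes were in the lowest Nras bin. In the bin of like Nras, the highest of hashtag 1 and the third of hashtag 2, Ankrd1 was at 103 and 63.7 CPM. There Cyr61 was at 99.7 and 106, Ctgf at 11.5 and 13.9, and Ajuba at 16.3 and 15.0 CPM. The part of Nras in these differences was not tested. Albumin was at 704 and 1760 CPM, which is 2.84% and 5.53% of its level in deep hepatocytes. No test was run on these cells, which were too few per mouse.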

How the data were processed

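Gene expression and hashtag libraries of 3 pooled mouse livers were analysed as deposited. The authors aligned reads to mm10 with Cell Ranger (2.1.1 in the submitters' processing notes) and deposited raw UMI counts per feature and barcode, without normalization, and hashtag counts per barcode from CITE-seq-Count. The gene expression library held 142080194 UMIs (median 3908 per barcode) and the hashtag library 2218117. The 6 antibody rows in the gene matrix were not used.

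Of 13141 barcodes in both libraries, 10212 with at least 1000 UMIs, 500 genes and under 20% mitochondrial UMIs were kept. Hashtags were called with HTODemux (Seurat 5.3.0, positive quantile 0.99), and barcodes called as doublets were left out. No other doublet caller was run. CPM totals exclude the Nras, mVenus and hashtag rows. UMIs were summed per hashtag and Nras bin (at least 5 cells and 20000 UMIs), which gave 9 sums, or per hashtag and cell type (at least 20 cells). Sums were tested with edgeR 4.0.16 (R 4.3.3, TMM, filterByExpr, quasi-likelihood F-test, hashtag as block, Benjamini-Hochberg over all genes, threshold 0.05), with DESeq2 1.42.0 as an alternative. The fit was tested on simulated data. Leaving out hashtag 1 or 2 leaves no residual degrees of freedom in the fit by Nras, which is then a value with no test.

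The members and gene lists were chosen with earlier results of these data known. Beside the members, the called genes with the 4 largest absolute changes per list and the 5 genes most alike in profile were named. Sequences are from RefSeq (GRCm38.p6).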

Additional observations from a re-analysis of the deposited data

Results flagged for a closer look

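The 890 deep hepatocytes that were negative for hashtags entered no comparison, and all 7 genes were detected in them above the limit that 3 UMIs allow over their summed depth (0.104 CPM). Cyr61 was at 218 CPM, Ankrd1 at 34.6, Ctgf at 16.9, Ajuba at 13.8, Lats2 at 9.18, Amotl2 at 7.96 and Axl at 1.91 CPM. These cells could not be assigned to a mouse, and whether the difference of Cyr61 from the called cells comes with the mouse was not tested.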

How the results depend on the processing

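Ankrd1 was called from the lowest to the highest bin in each of 17 alternatives with a test, and gave 2.23 and 3.01 with no test without hashtags 1 and 2. Over all single-gene values, 594 kept their side of the threshold or, where there was no test, lay near the main value. Of these 590 kept their direction, and 4 with no test did not. A further 65 lost and 8 gained a call, 13 with no test moved and 28 changed direction. Of these 28, 2 were called on either side, which were Ctgf with halved Nras limits (1.07) and Jun ranked by mVenus (0.022).

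The other 26 were not called on either side. At the highest bin Cyr61 became 0.16 with halved limits, 0.021 from 5000 UMIs, 0.40 without other-gated cells, 0.084 by the fixed hashtag rule, 0.10 by mVenus and 0.046 thinned, Ctgf became 0.096 with matched depth, 0.22 by mVenus, 0.79 thinned, 0.068 with up to 50% mitochondrial UMIs and 0.10 without the largest cells, and Amotl2 and Lats2 became 0.18 and -1.13 without other-gated cells. At the second bin Amotl2 became 0.11 with halved limits, 0.054 from 20000 UMIs, 0.093 without other-gated cells, 0.088 with the gate at 2%, 0.34 with matched depth, 0.085 by mVenus and 0.072 with up to 50% mitochondrial UMIs, Axl became -0.38 by the fixed rule and -0.34 with the gate at 0.5%, and Lats2 became -0.52 without other-gated cells. In endothelial-gated cells Ctgf became 1.17 against hepatocytes that pass no other gate (an alternative chosen after the data were seen), 0.20 without the replicate block and 0.16 without hashtag 2. The causes were not tested.

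From the lowest to the highest bin, genes called higher and lower were 1200 and 1240, against 669 and 662 with DESeq2, 496 and 738 with doubled Nras limits, 159 and 281 without cells that pass another marker gate, and 485 and 623 with cells thinned to 10000 UMIs. Members called were 1, and 2 with halved limits.

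From the lowest to the second bin they were 309 and 307, against 184 and 148 with DESeq2, 24 and 15 with halved limits, 14 and 34 without cells that pass another gate, 185 and 150 with the hepatocyte gate at 0.5%, 464 and 617 without a filter, 90 and 19 ranked by mVenus, and 103 and 141 thinned. Matching the lowest bin in depth left 143 higher, and doubled limits gave 578 lower. Members called were 0 with halved limits, without other-gated cells and with matched depth, and 2 with the gate at 2% or no filter. With the gate at 2%, 1911 of 10732 genes had an unadjusted p under 0.05 (edgeR).

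Without the replicate block, which takes the mouse out of the model, 198 were higher and 123 lower at the second bin, and 990 and 985 at the highest, with 1 member called in each. Without it 5 members were called between endothelial-gated cells and hepatocytes, where 4939 of 10842 genes had an unadjusted p under 0.05 (edgeR). Leaving out 1 hashtag each gave 0 to 1431 genes higher, 0 to 1561 lower and 0 to 3 members called in that comparison, with 0 of each without hashtag 1 and 598 higher and 777 lower without hashtag 2. Depth limits Axl in hepatocytes and the highest bin of hashtag 1, which held 20 cells.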
